A study of Homo sapiens with 12 samples.

Results

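The genes described here are 7 members of the cellular iron circuit, taken by symbol from a table of 25268 genes: the ferritin subunit genes FTH1 and FTL, the iron exporter gene SLC40A1, the transferrin receptor gene TFRC, the divalent metal transporter gene SLC11A2, and ACO1 and IREB2, which encode iron regulatory proteins 1 and 2. All 7 were found, and all 7 passed the filter on low values (a mean of at least 0.5 FPKM, sequenced fragments for each kilobase of the message, set relative to library size), which left 14676 genes for testing. They were read in 12 libraries from HEK293 cells, an established human embryonic kidney line, in 4 groups of 3 biological samples. Cells were transiently transfected with 2 µg of the empty His-tag vector (control, labelled wild type) or of pCMV6-HIS-HA-RBMX, which overexpresses the tagged nuclear RNA-binding protein RBMX. For each replicate number a total RNA library and a polysomal RNA library were made after a brief exposure to 10 µg/ml cycloheximide, which freezes ribosomes on the message, and separation of the lysate on a sucrose gradient. Total RNA was a pool of 20% of every gradient fraction, with nuclei already removed, whereas polysomal RNA came from the fractions that hold messages with several ribosomes. The libraries of one number are called a culture here, although the growth of cells in a pair of dishes leaves it unsettled whether both came from the same dish. The labels give no iron salt or iron chelator, so the cells were measured in ordinary serum-containing medium.

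Cells sense iron through a short RNA hairpin, the iron-responsive element (IRE). When iron is scarce, iron regulatory proteins bind the hairpin. In the 5′ untranslated region (UTR), close to the cap, the bound protein blocks recruitment of the ribosome, and this is how ferritin, which stores iron, and ferroportin, the SLC40A1 product, which exports it, are held back. In the 3′UTR the bound protein instead shields the message from decay, so that the transferrin receptor can take up more iron. When iron is plentiful, iron regulatory protein 1 carries an iron-sulfur cluster and works as a cytosolic aconitase, and iron regulatory protein 2 is degraded. A polysome profile therefore reads the arm that acts on ribosome recruitment, and total RNA reads the arm that acts on message decay.

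The hairpins themselves are shown first, because their position in the message separates the 5′ from the 3′ members. The UTRs of GENCODE release 29 protein-coding transcripts (GRCh38) were searched on the transcript strand for the letters CNNNNNCAGTGN, a bulged C, a 5-base stem arm and the 6-base loop, with 5 of 5 stem positions able to pair (A-T, G-C or G-T) with the bases after the loop. Capitals mark the bulged C and the loop. The sequence of FTH1 lies at chr11:61967574-61967603 (minus strand) and starts at base 58 of a 5′UTR of 235 bases. That of FTL lies at chr19:48965334-48965363 (plus strand), from base 34 of 207, and that of SLC40A1 at chr2:189580661-189580690 (minus strand), from base 198 of 427.
FTH1, 5′UTR: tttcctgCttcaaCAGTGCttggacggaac
FTL, 5′UTR: tctcttgCttcaaCAGTGTttggacggaac
SLC40A1, 5′UTR: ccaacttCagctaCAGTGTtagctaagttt

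The windows of the ferritin heavy and light chain genes were equal at 27 of 30 positions and differed at 3, whereas the SLC40A1 window had another stem, with the first 5 loop letters of both and the whole loop of FTL. Of 18842 genes with an annotated 5′UTR, 31 (0.165%) held the letters with all 5 pairs, and 14.1% held the letters alone. In the transferrin receptor message the element was repeated. The 3′UTR of TFRC, of 2658 bases, held 4 copies with 5 pairs, all on the minus strand of chromosome 3 and printed here in the order of the message, to show how the stem and the last loop letter vary between copies. They lie at chr3:196050979-196051008, chr3:196050575-196050604, chr3:196050510-196050539 and chr3:196050463-196050492.
TFRC, 3′UTR copy 1: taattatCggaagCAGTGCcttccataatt
TFRC, 3′UTR copy 2: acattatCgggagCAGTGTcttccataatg
TFRC, 3′UTR copy 3: tctgtatCggagaCAGTGAtctccatatgt
TFRC, 3′UTR copy 4: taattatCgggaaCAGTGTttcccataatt

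SLC11A2 carried 1 match with 4 of 5 pairs, at chr12:50988269-50988298 (minus strand), in the 3′UTR of 5 of its 9 annotated transcripts with a 3′UTR.
SLC11A2, 3′UTR: tagccatCagagcCAGTGTgtttctatggt

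Of 19080 genes with a 3′UTR, 128 (0.671%) held a match with 5 pairs and 4.65% held one with 4 or 5 pairs. The regulators had no 5-pair match. ACO1 and IREB2 each had a 4-pair match in the 3′UTR of 1 transcript, where 4.65% of genes held a match with 4 or 5 pairs. A match is a description of the letters in the reference, not a measured binding site, and gene-level FPKM values do not separate the SLC11A2 transcripts with the element from those without it.

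The libraries behind the values were checked next. RBMX itself stood at 87.4 to 148 FPKM in the 6 control libraries and at 1072 to 2073 FPKM in the 6 RBMX libraries, so the vector labels matched the transgene. Read depth is not given by an FPKM table. The sums of FPKM ran from 817528 to 1903317 per library, with 40.6% to 72.9% of the sum in small RNA genes. The HEK293 markers VIM, NEFM, NEFL, PAX2 and LHX1 were all above 0.5 FPKM on average, and summed to 276 to 669 FPKM. The sum, most of it VIM, was lowest in the libraries of control replicate 3. VIM, NEFM, NEFL and PAX2 each read lowest there in both fractions, whereas LHX1 was not lower there. Erythroid markers (HBB, HBG1 and ALAS2), from the cells that handle most body iron, summed to 0 to 0.0588 FPKM. Hepatocyte markers (ALB, APOA1 and the iron hormone gene HAMP) summed to 0.0978 to 1.19 FPKM. The blood and macrophage pair summed to 1.17 to 2.00 FPKM, nearly all CD14, with PTPRC at or below 0.021 FPKM. Control replicate 3 stood apart in both fractions: its median absolute log2 difference from a replicate of its own group was 0.185 to 0.235 over 4 pairs, against 0.0450 to 0.172 over the other 8 pairs, and values that move with it are also given without it. In these bulk samples, fewer cells of a kind and less RNA per cell cannot be told apart.

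Ferritin messages were by far the most abundant of the 7 in total RNA. FTL, the light chain that favours iron nucleation, read 637, 599.6 and 653 FPKM in control total RNA and 524, 641 and 627 FPKM in RBMX total RNA. FTH1, the heavy chain with the ferroxidase activity that oxidises incoming iron, read 193, 228 and 219 FPKM in control total RNA and 155, 207 and 239.9 FPKM in RBMX total RNA. The light chain libraries did not overlap the heavy chain libraries in either vector. IREB2 followed at 31.5 to 44.4 FPKM, then TFRC at 20.9 to 26.2, SLC11A2 at 15.3 to 19.9, SLC40A1 at 8.80 to 13.6 and ACO1 at 5.68 to 13.3 FPKM over the 6 total RNA libraries. In that order SLC40A1 and ACO1 overlapped, whereas the other neighbours did not. Polysomal RNA gave another picture: FTL stood at 113 to 169.9 FPKM and FTH1 at 46.6 to 68.0 FPKM, close above IREB2 at 27.5 to 43.5 FPKM, and SLC40A1 was lowest of the 7 by mean, at 4.17 to 5.65 FPKM.

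**Figure D1:**
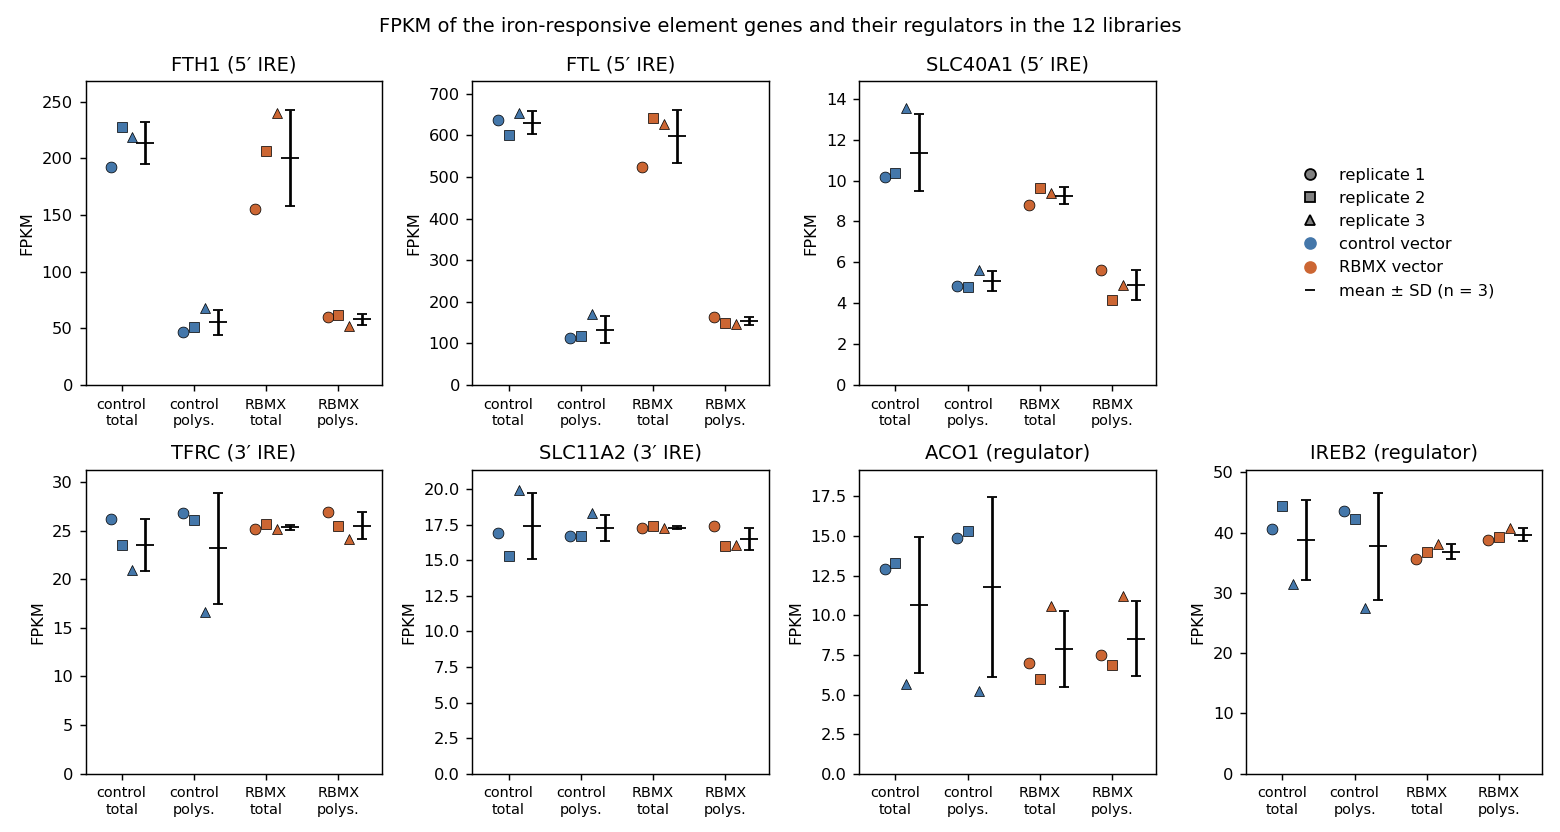
FPKM (linear axes from 0) of each gene in the 12 libraries, by group, with circles, squares and triangles for replicates 1, 2 and 3, blue for control and orange for RBMX cells, and bars for the mean ± SD of 3. FTH1, FTL and SLC40A1 are lower in every polysomal than in every total library, whereas the values of the other 4 genes overlap between the fractions in control cells.

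The first question was where the iron messages sat between the pools in control cells, and here the values are a description only, because FTH1 and FTL were picked from this comparison. FTL read 113, 117 and 169.9 FPKM in the 3 control polysomal libraries against 599.6 to 653 FPKM in total RNA. Its polysomal value was 17.7%, 19.5% and 26.0% of the total value in the 3 cultures, 21.1% ± 4.40 (SD), the largest distance among the 7. FTH1 read 46.6, 51.1 and 68.0 FPKM in control polysomes, 25.9% ± 4.53 of total. SLC40A1 read 10.2, 10.4 and 13.6 FPKM in control total RNA and 4.83, 4.81 and 5.64 FPKM in polysomal RNA, 45.1% ± 3.13 of total. On the log2(FPKM + 1) scale used for all differences, FTL, FTH1 and SLC40A1 differed by -2.26, -1.95 and -1.01. No polysomal library of these genes reached any total library, in a comparison where 7.31% of all genes tested were lower without overlap and 0.0818% were called in either direction by limma. Among 14174 genes other than small RNA genes, FTL stood at rank 3 from the lowest in polysomal against total RNA, FTH1 at rank 5 and SLC40A1 at rank 35. Over all 14676 genes tested, small RNA genes included, FTL, FTH1 and SLC40A1 stood at ranks 134, 148 and 219.

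The 3′ members and the regulators lay near the median gene in the same cells. TFRC read 26.2, 23.5 and 20.9 FPKM in control total RNA and 26.8, 26.1 and 16.6 FPKM in polysomal RNA, a log2 difference of -0.045. SLC11A2 read 16.9, 15.3 and 19.9 FPKM in total and 16.7, 16.7 and 18.3 FPKM in polysomal RNA. Both fractions overlapped for these transporter genes. ACO1 read 12.9, 13.3 and 5.68 FPKM in total RNA and 14.9, 15.3 and 5.22 FPKM in polysomal RNA, so that control replicate 3 was low in both fractions. IREB2 read 40.6, 44.4 and 31.5 FPKM in total RNA and 43.5, 42.2 and 27.5 FPKM in polysomal RNA, again lowest in that replicate. Neither regulator separated the fractions, with log2 differences of 0.091 and -0.053. Without control replicate 3 the differences of TFRC, SLC11A2 and IREB2 turned from slightly negative to 0.089, 0.050 and 0.014, and that of ACO1 was 0.19.

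In RBMX cells the same comparison was tested. FTH1 and FTL had been picked from control cells, but the genes were proposed with results of all 12 libraries known, so the p-values are not independent evidence. FTH1 read 155, 207 and 239.9 FPKM in total RNA and 60.1, 61.5 and 52.4 FPKM in polysomal RNA. Its polysomal value was 38.7%, 29.8% and 21.9% of total in the 3 cultures, a mean of 30.1% ± 8.44 (SD). The fall was 3.37-fold in FPKM + 1, a log2 difference of -1.75 (SE 0.17, limma adjusted p = 0.0283). FTL read 524, 641 and 627 FPKM in total and 164, 149 and 146 FPKM in polysomal RNA, 25.9% ± 4.60 of total. It fell 3.88-fold in FPKM + 1, with a log2 difference of -1.96 (SE 0.11, limma adjusted p = 0.00768). SLC40A1 read 8.80, 9.62 and 9.37 FPKM in total and 5.65, 4.17 and 4.92 FPKM in polysomal RNA, 53.3% ± 10.5 of total. It fell 1.74-fold in FPKM + 1, with a log2 difference of -0.80 (SE 0.10, limma adjusted p = 0.0419). For a gene this low the added 1 makes that fold smaller than the fall in FPKM itself, from a mean of 9.27 to 4.91. In this fit all 3 of the 5′ members passed the test and none of the other 4 did. Of all genes tested, 1.34% passed in either direction and 1.31% passed as lower. The split is a description, because the genes were proposed with these results known.

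All 3 also separated the fractions without overlap, as did 16.2% of all genes tested in that direction, and the exact two-sided permutation test of each gene gave p = 0.1, the smallest that 3 against 3 libraries allow. Ranked from the lowest log2 difference over the 14174 genes other than small RNA genes, FTL stood at rank 2, FTH1 at rank 4 and SLC40A1 at rank 141. Over all 14676 genes tested, small RNA genes included, FTL, FTH1 and SLC40A1 stood at ranks 150, 158 and 349. The direction was kept in other fits, whereas the calls were not. With each culture as a block, FTH1, FTL and SLC40A1 had limma adjusted p = 0.118, 0.115 and 0.138, so that 0 of 7 members passed, and 4 of all genes passed instead of 196. Leaving out RBMX replicate 1, 2 or 3 likewise left 0 members past the threshold and 23, 21 or 21 genes in all, with FTH1 between -1.95 and -1.54, FTL between -2.10 and -1.88 and SLC40A1 between -0.92 and -0.68.

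The other members did not pass in RBMX cells. TFRC read 25.2, 25.7 and 25.1 FPKM in total and 26.9, 25.4 and 24.2 FPKM in polysomal RNA, a log2 difference of 0.0095 (95% interval -0.12 to 0.14, limma adjusted p = 0.940). SLC11A2 read 17.2, 17.4 and 17.2 FPKM in total and 17.4, 16.0 and 16.1 FPKM in polysomal RNA, with an interval of -0.19 to 0.055 (limma adjusted p = 0.460). These intervals leave out a change as large as that of SLC40A1. ACO1 read 7.01, 6.01 and 10.6 FPKM in total and 7.48, 6.89 and 11.2 FPKM in polysomal RNA. Its spread between cultures, which this fit does not pair, gave a wide interval of -0.52 to 0.74 (limma adjusted p = 0.827). Within cultures 1, 2 and 3 the ACO1 log2 difference was 0.083, 0.17 and 0.080. IREB2 read 35.6, 36.7 and 38.1 FPKM in total and 38.7, 39.3 and 40.8 FPKM in polysomal RNA. Its mean was higher in polysomal RNA by 0.10 on the log2 scale (SE 0.046), and the difference did not pass (limma adjusted p = 0.254). Within cultures 1, 2 and 3 the IREB2 difference was 0.12, 0.097 and 0.096.

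**Figure D2:**
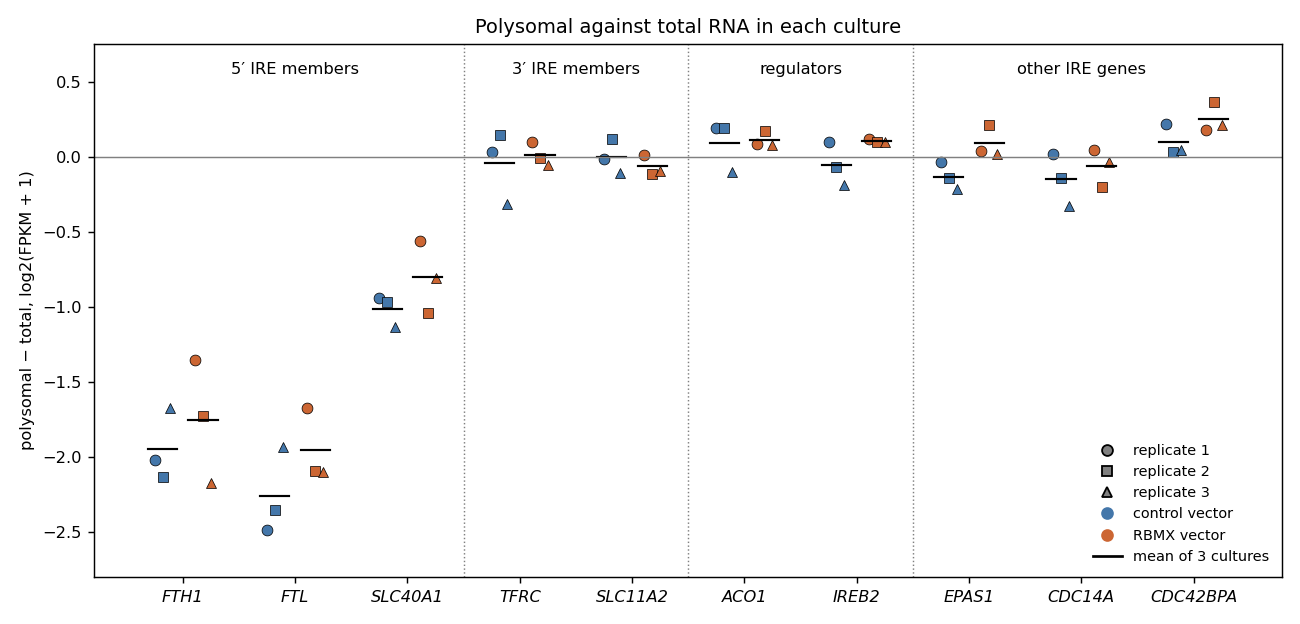
Polysomal minus total log2(FPKM + 1) for each culture (blue control, orange RBMX cells, symbols for the replicate number, lines for the mean of 3 cultures), with 0 meaning the same level in both fractions. FTH1, FTL and SLC40A1 lie at -0.56 or lower in all 6 cultures, and the other genes lie between -0.33 and 0.36.

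The distance between the 5′ and 3′ members was read in each culture as the mean log2 difference of FTH1, FTL and SLC40A1 minus that of TFRC and SLC11A2. It was -1.82, -1.95 and -1.37 in the control cultures (mean -1.71 ± 0.306 SD) and -1.25, -1.56 and -1.62 in the RBMX cultures (mean -1.48 ± 0.199 SD). The 5′ mean alone lay between -1.82 and -1.20 over the 6 cultures, and the 3′ mean between -0.21 and 0.13. The vectors overlapped in this distance. No test was made over a chosen set of 5 genes. The transcripts in which the elements were located also differed in length. They had 878 bases for FTL, 1229 for FTH1 and 3442 for SLC40A1, against 5111 for TFRC and 4132 for SLC11A2. Whether length bears on the distance was not tested.

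Among the further IRE genes given here, EPAS1 was the only tested one listed for a 5′ element, and it did not follow the ferritin pattern. EPAS1, the hypoxia-inducible factor 2 alpha gene, read 6.49 to 11.4 FPKM over the 12 libraries. Its log2 difference between fractions in RBMX cells was 0.089 (limma adjusted p = 0.541). No 4-pair or 5-pair match was found in its 5′UTR. The search pairs stem positions without gaps, so it can miss a hairpin with a further bulge in the stem. Of the genes with a reported 3′ element, CDC14A, a phosphatase gene, differed by -0.065 (limma adjusted p = 0.599) and CDC42BPA, a kinase gene, by 0.25 (limma adjusted p = 0.270) in RBMX cells. The search found a 5-pair match in 1 of 7 CDC14A 3′UTRs and none in those of CDC42BPA. ALAS2, the erythroid heme synthesis gene with a 5′ element, was at or below 0.039 FPKM and was not tested. EPAS1, CDC14A and CDC42BPA did not pass the test between fractions in either vector.

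Ferritin has many near-identical copies in the genome, and reads could be split among them. The FTH1 transcript aligned at 95% identity or more over at least 100 bases to transcripts of 16 other genes, 11 of them annotated as processed pseudogenes, and FTL to 1 pseudogene. Of these, only BEST1 is listed in the deposited values, a neighbouring gene that shares transcribed sequence with FTH1 (99.8% identity over 610 bases), and the strand setting of the counting is not given in the sources used here. Listed relatives were near or at 0: FTH1P3 read 0.152 to 0.794 FPKM, and FTMT (mitochondrial ferritin), FTHL17, FTH1P18 and FTLP10 were listed at 0 in all 12 libraries. How far reads from copies enter the FTH1 value was not tested.

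The low polysomal level of ferritin was set against the messages closest to it in behaviour. Correlations were taken over the 12 libraries, 6 total and 6 polysomal, so that any gene separating the fractions correlates with any other. The genes compared were 7624 with a mean of at least 10 FPKM, small RNA genes left out. Among them FTH1 was most like FTL (Pearson r = 0.992), RPLP1 (0.981) and YBX1 (0.976). FTL was most like FTH1 (0.992), RPLP1 (0.990) and RPL10 (0.976). RPLP1 encodes an acidic protein of the ribosomal stalk, RPL10 a large subunit protein and YBX1 an RNA-binding protein that packages messages. RPLP1 read 2291 to 2815 FPKM in total RNA and 857 to 1171 FPKM in polysomal RNA. SLC40A1 correlated with FTH1 and FTL at r = 0.951 and 0.957. TFRC went with other genes, P4HA1 (0.980, a collagen prolyl hydroxylase subunit) and COCH (0.968) among them. TFRC, P4HA1 and COCH each read lowest in the total and polysomal libraries of control replicate 3. There TFRC read 20.9 and 16.6 FPKM, P4HA1 13.5 and 10.2 and COCH 25.6 and 21.4. The correlations were not computed without that replicate.

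Ribosomal protein genes, whose 5′ terminal oligopyrimidine messages are known to be translationally controlled, give the scale. Of 79 cytosolic ribosomal protein genes listed, 78 were tested, and all 78 had a lower mean in polysomal than in total RNA in both vectors (60 in control and 50 in RBMX cells with quantile scaling), with medians of -0.65 in control and -0.66 in RBMX cells on the log2 scale, against a median over all genes of -0.0011 in RBMX cells. Their range was -1.58 to -0.058 in control cells and -1.58 to -0.098 in RBMX cells. Both ferritin genes lay below every ribosomal protein gene in both vectors on this scale. In RBMX cells this order did not hold with a pseudocount of 0.1 or without RBMX replicate 3, where the lowest ribosomal protein gene was at -2.15 and -2.08. SLC40A1 lay within their range. By limma, RPSA passed in control cells (1 of 78, against 0.0818% of all genes) and RPS12 and RPL41 in RBMX cells (2 of 78, against 1.34%). In RBMX cells 0 of 78 passed with the replicate block (4 of 14676 genes in all) and 0 of 78 without RBMX replicate 1, 2 or 3. With small RNA genes left out, 21 of 78 passed there, where 454 of 14174 genes did. Without control replicate 3, 25 of 78 passed in control cells, where 199 of 14676 genes did. Over all 14174 genes, 39 were below -1 in control cells and 61 in RBMX cells.

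**Figure D3:**
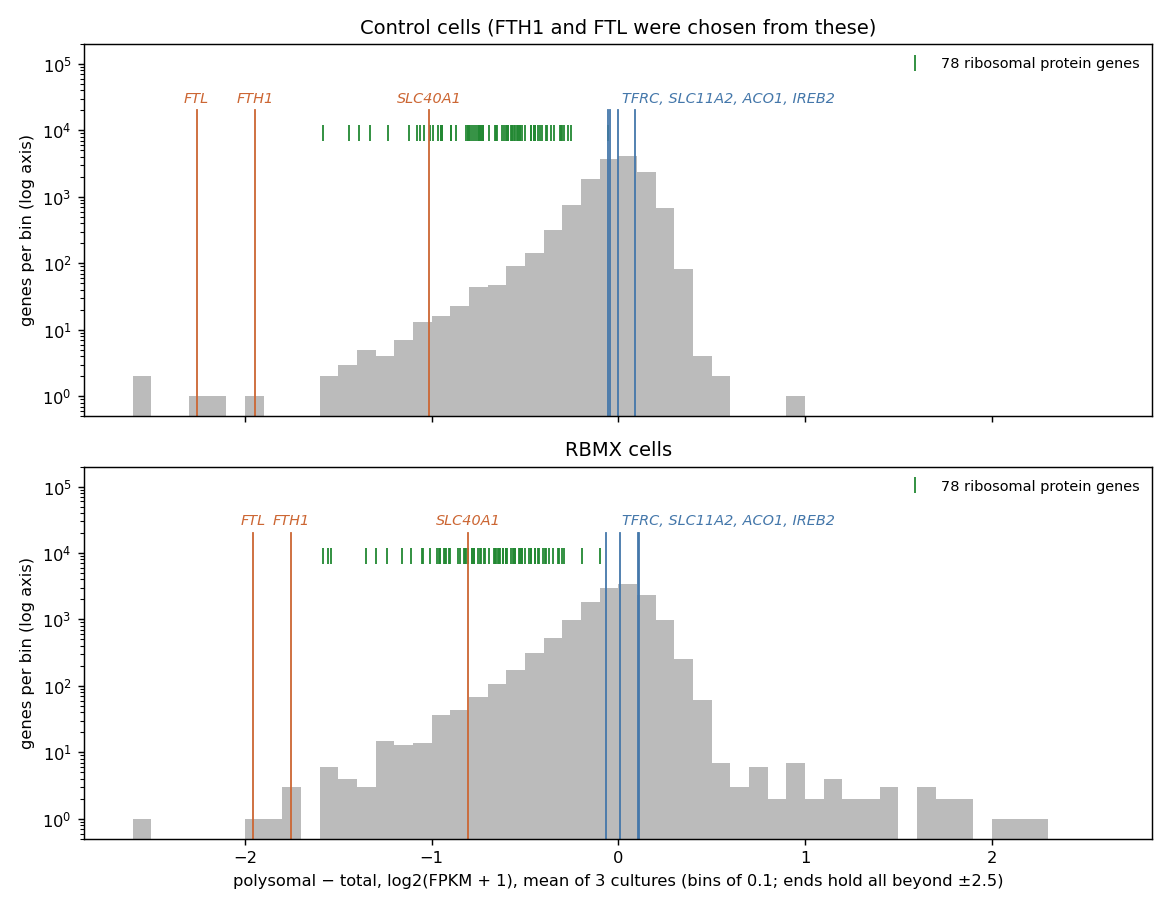
Number of genes (log axis) by polysomal minus total log2(FPKM + 1), mean of 3 cultures, in control (top) and RBMX cells (bottom), for genes other than small RNA genes, with green ticks for 78 ribosomal protein genes. On this scale FTL and FTH1 lie left of all ribosomal protein genes in both panels, an order that in RBMX cells did not hold with a pseudocount of 0.1 or without RBMX replicate 3, and the blue lines of TFRC, SLC11A2, ACO1 and IREB2 lie close to 0.

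The second question was whether RBMX overexpression moved the iron messages. In total RNA 0 of 7 members passed the test, where 0.164% of all genes tested did. FTH1 differed by -0.11 (95% interval -0.55 to 0.33, limma adjusted p = 0.759) and FTL by -0.081 (-0.35 to 0.19, limma adjusted p = 0.712) on the log2 scale. SLC40A1, at 8.80, 9.62 and 9.37 FPKM with RBMX against 10.2, 10.4 and 13.6 FPKM with the empty vector, was lower in all RBMX libraries, by 0.26 on the log2 scale (SE 0.12, limma adjusted p = 0.305), as 27.3% of all genes tested separated the vectors in one direction or the other. TFRC differed by 0.11 (-0.11 to 0.33), SLC11A2 by 0.0004 (-0.25 to 0.25) and IREB2 by -0.061 (-0.39 to 0.27). ACO1 read 7.01, 6.01 and 10.6 FPKM with RBMX and 12.9, 13.3 and 5.68 FPKM without, and its difference of -0.34 had an interval from -1.24 to 0.55.

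In polysomal RNA 0 of 7 members passed as well, where 0.0477% of all genes tested did. FTL, at 164, 149 and 146 FPKM with RBMX against 113, 117 and 169.9 FPKM, differed by 0.22 (-0.22 to 0.67, limma adjusted p = 0.619), and the groups overlapped through control replicate 3. FTH1 differed by 0.085 (-0.31 to 0.48) and SLC40A1 by -0.048 (-0.34 to 0.25). TFRC, SLC11A2, ACO1 and IREB2 differed by 0.16, -0.061, -0.32 and 0.096. All 7 overlapped, where 22.5% of all genes tested did not.

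Control replicate 3 weighed on these values. Without it ACO1 differed by -0.70 in total and -0.78 in polysomal RNA (limma adjusted p = 0.169 and 0.252), IREB2 by -0.20 and -0.11, and FTL in polysomal RNA by 0.41 (limma adjusted p = 0.245), so that still 0 members passed in either fraction. With all 3 replicates the values of ACO1 were -0.34 and -0.32.

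**Figure D4:**
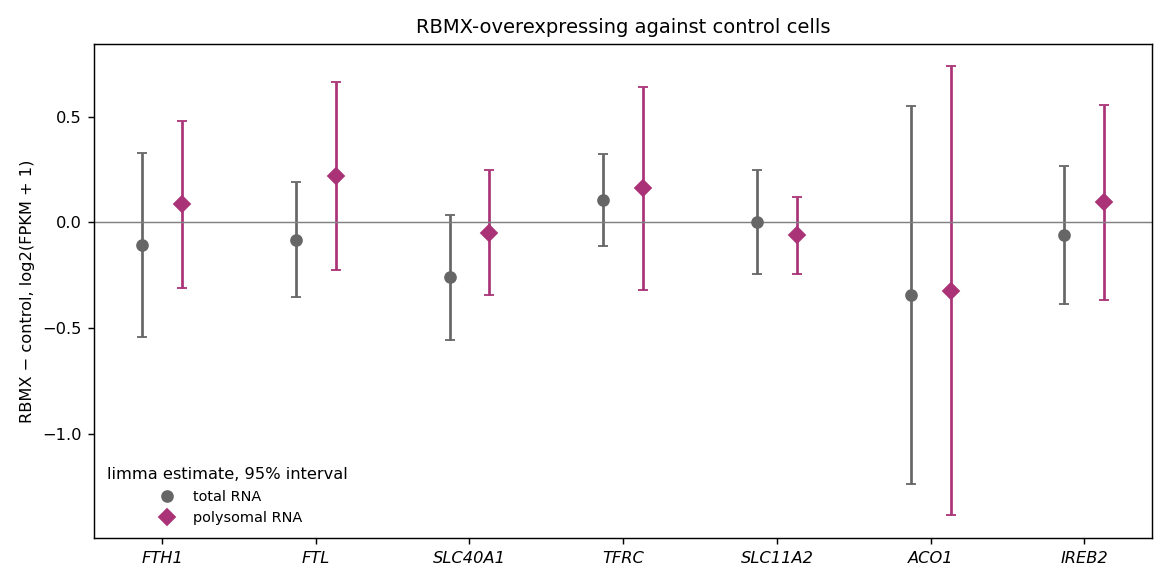
RBMX minus control log2(FPKM + 1) with limma's 95% interval for each gene, in total RNA (grey circles) and polysomal RNA (purple diamonds). Every interval includes 0, and those of ACO1 are the widest.

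The difference between the fractions was then compared between the vectors, in a limma fit of all 12 libraries that shares the control libraries with the comparisons above. That fit does not pair the total and polysomal libraries of a culture, so its intervals and p-values are unpaired. FTH1 and FTL were less far below total in RBMX than in control cells by 0.19 and 0.30 on the log2 scale, given without a test because the control cultures served to choose them. Leaving out 1 replicate moved FTH1 between -0.0061 and 0.40, across 0, and FTL between 0.16 and 0.46, and quantile scaling gave 0.57 for FTL. SLC40A1 differed by 0.21 (95% interval -0.17 to 0.59, limma adjusted p = 1.00). TFRC, SLC11A2, ACO1 and IREB2 differed by 0.055, -0.062, 0.020 and 0.16, and none passed, where 0.0204% of all genes tested did. The change of vector was thus smaller than the fraction difference itself for each 5′ member, and the culture values overlapped between vectors for FTH1, FTL and SLC40A1.

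The wider iron pathway lay near the median gene. A list of 58 further genes of iron uptake, iron-sulfur cluster assembly and heme metabolism had 49 that passed the filter, and 0 of 49 passed the test in any of the 5 comparisons. Of all genes tested, 0.0818% passed between fractions in control and 1.34% in RBMX cells. Between vectors 0.164% passed in total and 0.0477% in polysomal RNA, and 0.0204% in the difference of differences. At such shares a count of 0 does not set the list apart. At an unadjusted p under 0.05, 2 of 49 (4.08%) were counted in polysomal against total RNA of control cells, where 8.04% of all genes tested were, and 5 (10.2%) in RBMX cells, where 23% were. Between vectors 9 (18.4%) were counted in total RNA, where 18.8% of all genes were, and 1 (2.04%) in polysomal RNA, where 11.7% were. The difference of differences had 0. The list's median log2 difference was -0.0087 in control and 0.0041 in RBMX cells between fractions, and 0.056 in total and 0.073 in polysomal RNA between vectors. The 9 that failed the filter were mostly liver, gut and erythroid genes, among them TF (transferrin), HAMP (hepcidin), CP (ceruloplasmin) and TFR2.

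Between fractions in RBMX cells the list ran from BOLA3, an iron-sulfur cluster assembly factor, at -0.60 (limma adjusted p = 0.182) and SLC25A37, mitoferrin 1, which carries iron into mitochondria, at -0.43 (limma adjusted p = 0.0562) to IBA57, another cluster assembly factor, at 0.21 and the endosomal ferrireductase STEAP3 at 0.25 (limma adjusted p = 0.158). BOLA3 and SLC25A37 were also lowest in control cells, at -0.36 and -0.30, with STEAP3 at 0.19 and HMOX2, a heme oxygenase, at 0.21 highest. Between vectors the lowest were the metalloreductase STEAP2 at -0.32 and the cluster assembly protein ISCA1 at -0.26 in total RNA, and ISCA1 at -0.44 and BOLA3 at -0.33 in polysomal RNA. The highest were NDOR1, a reductase of cytosolic cluster assembly, at 0.40 and SLC25A28, mitoferrin 2, at 0.54 in total RNA, and the same genes at 0.35 and 0.53 in polysomal RNA. In the difference of differences the list ran from FDX1L, a mitochondrial ferredoxin, at -0.24 and BOLA3 at -0.23 to STEAP2 and IBA57, both at 0.13. None of these genes came as low in polysomes as SLC40A1 in the same vector.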

How the data were processed

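FPKM values of 12 HEK293 libraries were used as the authors deposited them, 1 table of 25268 genes. Per the labels, libraries were made from 500 ng RNA with the Illumina TruSeq RNA kit, and the submitters' processing notes name CASAVA 1.8, TopHat2 2.0.13, Cufflinks 2.2.1, Cuffnorm and build hg19. The paper describes another route for its own counts. Cuffnorm's library scaling, the strand setting and read depth are not given in the sources used here. FPKM is relative to each library, so a fraction difference is relative to the average message, and low genes are understated on the log2(FPKM + 1) scale.

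Genes with a mean of at least 0.5 FPKM were fitted with limma 3.58.1 in R 4.3.3 (trend, Benjamini-Hochberg over all genes tested, threshold 0.05), in the 6 libraries of each comparison. The steps were tested on simulated data. Intervals are limma's at 95%. Ferritin copies were found with BLAST 2.17.0, and UTR sequences and coordinates are GRCh38 and serve only the element search.

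Total and polysomal libraries of a number were taken as 1 culture, since total RNA was pooled from the gradient fractions, although cells were seeded into a pair of dishes and a shared dish is not stated. Their deviations from the group means correlated at 0.625, 0.724 and 0.858 in control and 0.235, 0.0201 and 0.695 in RBMX cultures. Between vectors a number is only a number.

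The members, the iron, ribosomal protein and marker lists and the further IRE genes were chosen with earlier results of these data known. Named list genes are those past the threshold in any comparison and, per comparison, the 2 highest and 2 lowest iron genes. For FTH1, FTL and TFRC the 3 most correlated genes with a mean of at least 10 FPKM, other than small RNA genes, are named. A few genes that these rules name are not reported here. Alternatives were another pseudocount (0.1), other filters (none, 0.1 and 1 FPKM), quantile and median-ratio scaling, no trend, the replicate block, all 12 libraries in one fit, leaving out each replicate, and, added after the data were seen, leaving out small RNA genes.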

Additional observations from a re-analysis of the deposited data

How the results depend on the processing

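Between polysomal and total RNA the 5′ members kept their direction under every alternative run, in both vectors. In polysomal against total RNA of RBMX cells, members past the threshold numbered 3 of 7, but 1 without a filter (FTL, limma adjusted p = 0.0151), 2 with quantile scaling, 0 with the replicate block and 0 without any 1 replicate. Over the alternatives, adjusted p ran from 0.00471 to 0.312 for FTH1, 0.00156 to 0.149 for FTL and 0.0118 to 0.296 for SLC40A1. The other settings gave 3. The cause was not tested. Between vectors 0 members passed under all 16 alternatives in each fraction. The 5′ minus 3′ distance ran from -1.89 to -1.60 in control and from -1.59 to -1.34 in RBMX cells.

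Signs changed only for differences that had not passed or were not tested. With quantile scaling SLC11A2 was -0.023 between vectors in total RNA and 0.011 between fractions in control cells, and FTL was 0.57 in the difference of differences. Leaving out 1 replicate gave ranges across 0 between fractions in control cells for TFRC (-0.14 to 0.089), SLC11A2 (-0.065 to 0.050) and IREB2 (-0.13 to 0.014), in RBMX cells for TFRC (-0.033 to 0.041), in total RNA between vectors for FTH1 (-0.25 to 0.064), FTL (-0.13 to 0.010), SLC11A2 (-0.082 to 0.097) and IREB2 (-0.20 to 0.040), in polysomal RNA for FTH1 (-0.026 to 0.24), SLC40A1 (-0.14 to 0.045), TFRC (-0.052 to 0.28) and IREB2 (-0.11 to 0.21), and in the difference of differences for FTH1 (-0.0061 to 0.40), TFRC (-0.079 to 0.15) and ACO1 (-0.077 to 0.069). SLC40A1 in control cells was -1.14 with a pseudocount of 0.1. With small RNA genes left out, 1 of 49 genes of the iron list passed between fractions in RBMX cells, where 454 of 14174 genes did.

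Counts over all genes moved more. In polysomal against total RNA of control cells, 12 genes passed, 6 with the replicate block, 41 with all 12 libraries, 20 without control replicate 1, 199 without control replicate 3 and 6 without small RNA genes. In RBMX cells 196 passed, 4 with the replicate block, 21 with all 12 libraries, 53 without a filter, 70 with quantile scaling, 21 to 23 without 1 replicate and 454 without small RNA genes. Between vectors in total RNA 24 passed, 13 with the replicate block, 62 with a filter of 0.1 FPKM, 73 without one, 60 with all 12 libraries, 40 without control replicate 3 and 178 without RBMX replicate 3. In polysomal RNA 7 passed, 3 with the replicate block, 14 with a filter of 0.1 FPKM, 22 with all 12 libraries, 14 without control replicate 1, 11 without control replicate 3 or RBMX replicate 2, 126 without RBMX replicate 3 and 2 without small RNA genes. In the difference of differences 3 passed, with 0 to 7 over the alternatives. Groups of 3 libraries and unknown depth limit what the intervals can show.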
